A study of Mus musculus with 8 samples.

Results

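The mitochondrial ribosomal protein genes were taken as all mouse genes whose symbol begins with Mrpl or Mrps followed by a number, and 78 of the 20581 genes tested met this rule. In all, 84 symbols in the RefSeq table matched, of which 78 were protein coding and 6 were pseudogenes. The array carried a probe for each protein-coding member and none named for a pseudogene. For each member the brightest probe was used, and this probe was well above background on all 8 arrays for each of the 78. By subunit, 51 members belong to the large subunit, 26 to the small subunit, and 1, Mrps36, was placed in neither.

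Mitochondrial ribosomes translate the few messenger RNAs encoded in mitochondrial DNA, all of which specify membrane subunits of the respiratory chain and ATP synthase. Their RNA comes from mitochondrial DNA, whereas every protein of the particle is encoded in the nucleus, made on cytosolic ribosomes and imported. Some of these proteins descend from bacterial ribosomal proteins and others occur only in mitochondria. Kidney tubule cells, above all those of the proximal tubule and the thick ascending limb, are rich in mitochondria, which power solute transport.

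The material was whole kidney from male mice 16 weeks of age, hybridised to 8 Agilent arrays with 1 dye, 2 arrays for each of 4 groups. The groups were wild-type (WT) uninjured kidney, Keap1 knockdown (KD) uninjured kidney, WT kidney with ischemia-reperfusion injury (IRI), and KD kidney with IRI. Injury consisted of clamping the vein and artery of the left kidney for 45 min, with harvest 1 day later and the right kidney left unclamped. Uninjured (normal) samples were left kidneys of mice without the operation, and neither a sham operation, a strain nor the knockdown allele is given in the sources used here. KEAP1 is the adaptor that sends the transcription factor NRF2 for degradation.

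Levels are the log2 of the processed spot intensity minus the log2 of that array's 75th percentile, and all changes are differences of such levels. Keap1 itself was lower in KD than in WT by -1.25 ± 0.12 (SE) in normal kidney and by -1.39 ± 0.12 after IRI, on the log2 scale (limma, adjusted p = 0.004 and 0.00546, n = 2 arrays per group), as the labels state. Within a group, the r between both arrays across genes was between 0.9892 and 0.9941. No spot was saturated, and 62.1% to 67.8% of spots were well above background. Genes were called changed at a Benjamini-Hochberg adjusted p under 0.05 in limma, over all 20581 genes. The labels do not say that the 2 arrays of a group came from separate mice. Each p-value therefore sets a change only against the spread between arrays within groups, pooled over the 4 groups and moderated by limma. This spread may be technical.

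Injury was followed by lower levels of many mitochondrial ribosomal protein genes and higher levels of a few. In WT kidney 37 members fell, 3 rose and 38 did not pass the test. Over all genes tested, 45.9% were called, 25.2% lower and 20.6% higher, against 47.4% of the members lower and 3.85% higher. The arrays of the 2 groups did not overlap for 59 members, against 76.7% of all genes. The median change of the members was -0.26 on the log2 scale, and that of all genes was -0.08. Under quantile normalization, which forces the arrays to 1 intensity distribution, the WT count was 20 lower (25.6%, against 22.3% of all genes) and 6 higher, with a median of -0.07. The excess of falls over the background was therefore present with scaling to the array percentile and small with quantile normalization.

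In KD kidney 40 members fell, 7 rose and 31 did not pass the test after injury. Of all genes 59.3% were called there, 31.8% lower and 27.5% higher, against 51.3% of the members lower and 8.97% higher. The groups did not overlap for 68 members, against 81.9% of all genes. The members' median was -0.23, against -0.08 for all genes. With quantile normalization 19 members (24.4%, against 27.7% of all genes) were lower and 17 (21.8%, against 31% of all genes) were higher, and the median was -0.01. Mrpl43 and Mrpl57, both mitochondria-specific proteins of the large subunit, were called lower in KD with the array percentile and higher in at least 1 alternative.

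A core of 9 members was called in the same direction in both genotypes in each of 19 fits. These comprised 5 scalings, 8 fits that left out 1 array, and other choices of filter, probe and model, but not the fit with a fold minimum. The share of all genes that meets the same condition was not counted, so such a core is not shown to be particular to the members. The 7 falling members of the core were Mrpl16, Mrpl44 and Mrpl50 of the large subunit and Mrps2, Mrps9, Mrps21 and Mrps31 of the small subunit. The 2 rising members were Mrpl33 and Mrpl52, both of the large subunit. Mrpl16, Mrpl33, Mrps2, Mrps9 and Mrps21 have bacterial counterparts, and the other four exist only in mitochondria.

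Mrpl33, a small protein of the large subunit, had the largest rise of all members in both genotypes. Its log2 level was 4.67 and 4.57 on the WT normal arrays, 4.54 and 4.48 on KD normal, 5.56 and 5.53 on WT IRI, and 5.92 and 5.77 on KD IRI. All injured arrays were above all uninjured ones, and both KD IRI arrays were above both WT IRI arrays. The change with injury was 0.92 ± 0.08 in WT (SE, 1.90-fold higher, adjusted p = 0.000251) and 1.34 ± 0.08 in KD (2.53-fold higher, adjusted p = 3.11e-05).

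Mrpl52, a mitochondria-specific protein of the large subunit, was at 3.69 and 3.70 on the WT normal arrays, 3.58 and 3.58 on KD normal, 4.24 and 4.33 on WT IRI, and 4.45 and 4.40 on KD IRI. The injured arrays again did not overlap the uninjured ones. It rose by 0.59 ± 0.07 in WT (adjusted p = 0.000668) and by 0.84 ± 0.07 in KD (1.79-fold, adjusted p = 7.51e-05).

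Mrps21, which has a counterpart in the bacterial small subunit, had the largest fall in KD. Its level was 2.23 and 2.19 on the WT normal arrays, 2.42 and 2.35 on KD normal, 1.64 and 1.35 on WT IRI, and 1.43 and 1.32 on KD IRI. Injured and uninjured arrays were separated by more than the range within any group. The fall was 1.64-fold in WT (-0.72 ± 0.11, adjusted p = 0.00221) and 2.01-fold in KD (-1.01 ± 0.11, adjusted p = 0.000274).

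Mrps14, another small-subunit protein with a bacterial counterpart, had the largest fall in WT. Levels were 2.59 and 2.56 on the WT normal arrays, 2.47 and 2.41 on KD normal, 2.08 and 1.57 on WT IRI, and 1.76 and 1.54 on KD IRI. The 2 WT IRI arrays differed more than those of any other group, with the second close to KD IRI. Mrps14 fell by 0.75 ± 0.16 in WT (adjusted p = 0.00972, but 0.055 without the first WT normal array) and by 0.79 ± 0.16 in KD (adjusted p = 0.00517).

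**Figure D1:**
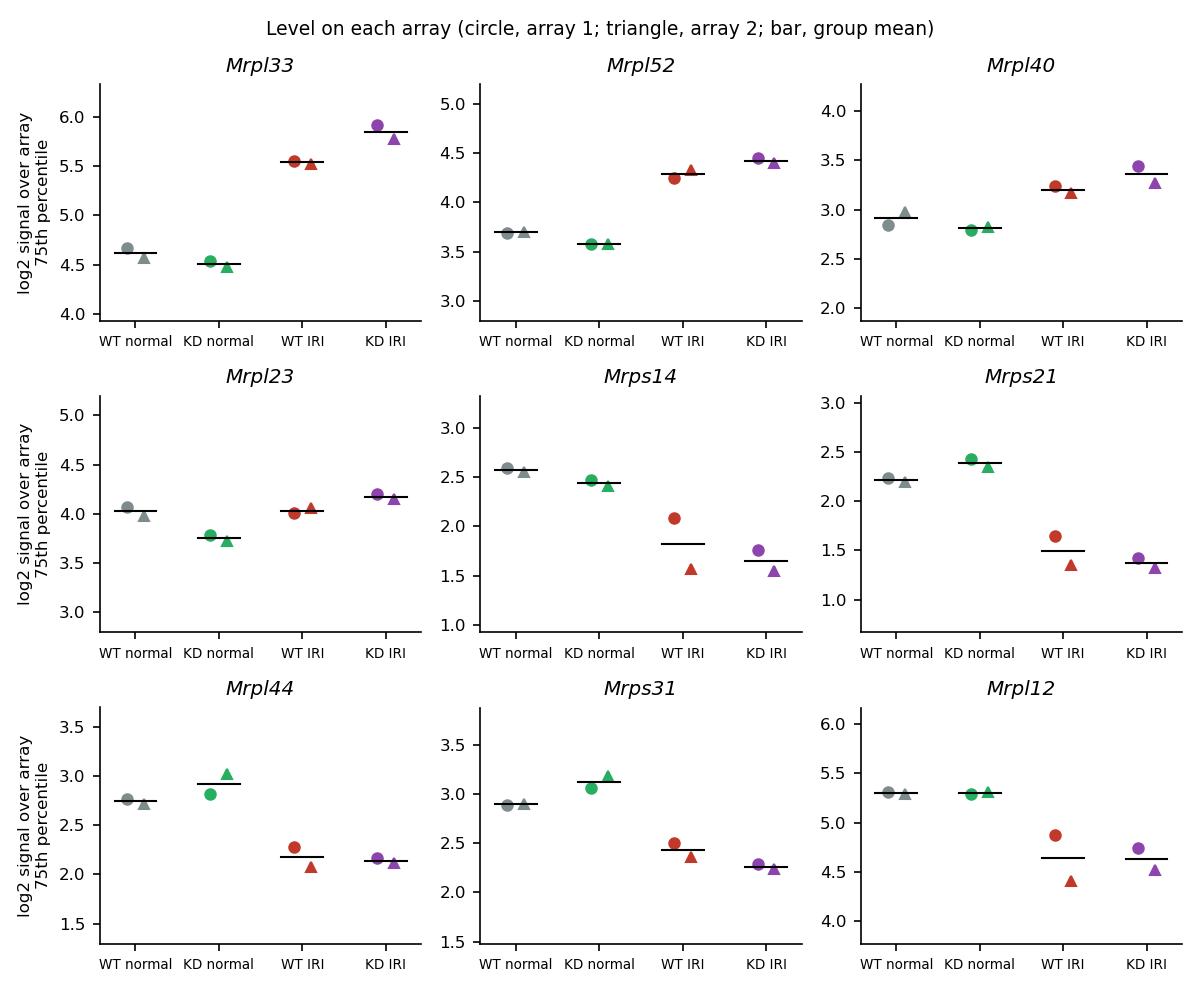
Level on each array (y axis, log2 intensity relative to the 75th percentile) of 9 members in the 4 groups, with circles for the first array, triangles for the second and bars for group means. Every panel spans the same number of log2 units, and Mrpl33 lies at 5.53 or above on each injured array and at 4.67 or below on each uninjured one.

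Promoter sequence is shown for these 4 members, which had the 2 largest rises in both genotypes (Mrpl33 and Mrpl52) and the largest fall in WT (Mrps14) and in KD (Mrps21). Each window runs from 250 bases before to 50 after the annotated transcription start, is taken from RefSeq on GRCm38.p6, and is written 5′ to 3′ on the strand of the gene. Capitals mark matches to the motif of ETS factors such as GABPA (CCGGAAG or its reverse complement) and to the antioxidant response element core bound by NRF2 (TGACNNNGC or its reverse complement). The windows are chr5:31613701-31614000 on the plus strand for Mrpl33, chr14:54426659-54426958 on the plus strand for Mrpl52, chr1:160194965-160195264 on the plus strand for Mrps14, and chr3:95871465-95871764 on the minus strand for Mrps21.
Mrpl33: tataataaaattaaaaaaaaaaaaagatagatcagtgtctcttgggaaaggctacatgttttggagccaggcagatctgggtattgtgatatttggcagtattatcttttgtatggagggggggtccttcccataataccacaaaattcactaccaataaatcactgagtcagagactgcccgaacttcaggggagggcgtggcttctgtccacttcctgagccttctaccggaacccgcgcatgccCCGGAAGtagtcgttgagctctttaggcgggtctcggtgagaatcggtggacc
Mrpl52: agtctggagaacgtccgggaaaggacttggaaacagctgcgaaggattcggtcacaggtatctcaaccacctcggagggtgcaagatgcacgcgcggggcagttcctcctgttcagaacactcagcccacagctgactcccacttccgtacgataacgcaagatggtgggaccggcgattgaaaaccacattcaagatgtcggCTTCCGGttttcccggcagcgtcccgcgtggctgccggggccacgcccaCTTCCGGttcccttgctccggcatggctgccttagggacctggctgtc
Mrps14: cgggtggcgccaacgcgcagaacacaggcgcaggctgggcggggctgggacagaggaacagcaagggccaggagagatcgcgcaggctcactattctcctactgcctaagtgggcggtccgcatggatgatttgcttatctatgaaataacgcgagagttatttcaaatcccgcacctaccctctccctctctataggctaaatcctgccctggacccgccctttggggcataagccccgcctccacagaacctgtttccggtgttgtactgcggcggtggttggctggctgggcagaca
Mrps21: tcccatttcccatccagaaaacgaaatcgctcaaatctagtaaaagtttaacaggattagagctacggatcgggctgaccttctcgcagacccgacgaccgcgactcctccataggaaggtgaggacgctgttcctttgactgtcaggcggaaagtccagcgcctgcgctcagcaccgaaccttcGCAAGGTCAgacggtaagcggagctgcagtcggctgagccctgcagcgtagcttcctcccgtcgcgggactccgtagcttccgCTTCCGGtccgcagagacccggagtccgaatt
In the Mrpl33 window the ETS motif begins at -3 from the start. Mrpl52 has a pair of copies, the first at -47. Mrps21, which fell, also has the ETS motif, past its start, and an antioxidant response core at -65, whereas neither string nor the 2 other motifs searched was found in the Mrps14 window.

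Of the 78 members, 69 had a promoter in the RefSeq table, with 75 windows in all. The ETS motif was present in 34.7% of these windows, against 11.6% of the windows of protein-coding genes and 8.86% of all windows. Windows of members lower in both genotypes held it in 20.6% of cases, and windows of members lower in neither in 41.9%. The motif of nuclear respiratory factor 1 (GCGCA followed by its reverse complement) was found in 4.0% of member windows, which is 3 windows, and 1.33% of protein-coding ones. For the E-box CACGTG, bound by MYC among others, the shares were 9.33% and 7.84%. The 7 member windows with the E-box include overlapping windows of 1 gene, Mrpl2. Windows and not genes were counted, so a gene with several windows, such as Mrpl2 or Mrpl48, counts more than once. The antioxidant response core was in 18.7% of member windows and 13.0% of protein-coding ones. Median GC content was 58.7% in member windows and 56.3% in protein-coding ones, with a median of 21 and 13 CpG dinucleotides. Both strands were searched, a match is a string in the window and not a bound site, and no motif contains another.

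Among large-subunit members, 23 of 51 fell and 3 rose in WT (45.1% and 5.88%, against 25.2% and 20.6% of all genes). In KD 24 fell and 7 rose (47.1% and 13.7%, against 31.8% and 27.5%). With quantile normalization 11 were lower and 6 higher in WT, and 9 lower and 14 higher in KD. These lower counts were not above the shares of all genes given above for that scaling. The KD median of the large-subunit members turned from -0.22 to 0.01 there. On brightest probes with array percentile scaling, all members that rose in either genotype belonged to the large subunit. They were Mrpl33, Mrpl40 and Mrpl52 in WT, and these with Mrpl17, Mrpl19, Mrpl23 and Mrpl54 in KD. Dimmer probes of the small-subunit members Mrps17 in WT (0.65) and Mrps18c in KD (0.38) were also called higher. Mrpl40, a mitochondria-specific protein whose human gene lies in the region lost in DiGeorge syndrome, rose by 0.29 ± 0.09 in WT (adjusted p = 0.033) and 0.55 ± 0.09 in KD (adjusted p = 0.00174). The WT call for Mrpl40 was lost without either WT normal array or either WT IRI array, with adjusted p from 0.0577 to 0.192.

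Mrpl23, the counterpart of a bacterial protein at the mouth of the exit tunnel, stood at 4.07 and 3.98 on the WT normal arrays, 3.78 and 3.72 on KD normal, 4.01 and 4.06 on WT IRI, and 4.20 and 4.15 on KD IRI. Its WT groups overlapped and its KD groups did not. The injury change was 0.01 ± 0.07 in WT (adjusted p = 0.942) and 0.42 ± 0.07 in KD (adjusted p = 0.00189). Also higher after injury in KD were Mrpl19 (0.47 ± 0.12), Mrpl17 (0.29 ± 0.07) and Mrpl54 (0.25 ± 0.08). In WT these genes changed by 0.09, 0.02 and 0.22, none past the threshold (limma, adjusted p = 0.587, 0.854 and 0.0525), so Mrpl54 changed almost alike in both genotypes. Of the 19 fits, they were called higher in KD in 17, 18 and 14, and each call was lost in some fit without 1 array.

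Proteins of the ribosomal stalk were among the large-subunit members that fell. Mrpl12, the stalk protein that has also been described as a partner of mitochondrial RNA polymerase, was at 5.31 and 5.29 on the WT normal arrays, 5.29 and 5.31 on KD normal, 4.87 and 4.40 on WT IRI, and 4.74 and 4.52 on KD IRI. All injured arrays were below all uninjured ones. The falls were 1.58-fold in WT (-0.66 ± 0.15, adjusted p = 0.0116) and 1.59-fold in KD (-0.67 ± 0.15, adjusted p = 0.00751). Mrpl10, which anchors the stalk, changed by -0.26 ± 0.08 in WT and -0.37 ± 0.08 in KD (adjusted p = 0.0278 and 0.00536). Of the 19 fits, Mrpl12 was called lower in 15 in WT and 16 in KD, and Mrpl10 in 12 and 18. The base protein Mrpl11 had changes of -0.10 ± 0.12 and -0.17 ± 0.12 (adjusted p = 0.522 and 0.258).

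Mrpl44, which carries a ribonuclease III-like fold, was at 2.76 and 2.72 in WT normal and 2.27 and 2.07 in WT IRI, and at 2.82 and 3.02 in KD normal and 2.16 and 2.11 in KD IRI. No injured array reached an uninjured one. The falls were -0.57 ± 0.10 and -0.78 ± 0.10 (adjusted p = 0.00411 and 0.000594). Mrpl4, a counterpart of a bacterial large-subunit protein, fell by 0.56 in WT and 0.84 in KD (adjusted p = 0.0143 and 0.00167), and Mrpl34, also with a bacterial counterpart, fell by 0.53 and 0.83 (adjusted p = 0.0121 and 0.00112). Mrpl41, reported elsewhere to act with p53 in growth arrest, fell by 0.51 in WT and 0.38 in KD (adjusted p = 0.00268 and 0.00593). Mrpl58, a peptidyl-tRNA hydrolase built into the large subunit, changed by -0.26 in WT (adjusted p = 0.0391) and -0.12 in KD (adjusted p = 0.243), and its WT value turned to 0.05 with normexp background correction and quantile normalization (adjusted p = 0.69).

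In the small subunit 13 of 26 members fell in WT and 15 in KD (50% and 57.7%, against 25.2% and 31.8% of all genes). None was called higher on its brightest probe in this fit. With quantile normalization 8 were lower in WT, and 9 were lower and 3 higher in KD. These lower counts were little above the shares of all genes given above for that scaling. Mrps31, a mitochondria-specific protein, was at 2.89 and 2.90 on the WT normal arrays, 3.06 and 3.18 on KD normal, 2.50 and 2.36 on WT IRI, and 2.29 and 2.23 on KD IRI. The KD normal arrays were the highest and the KD IRI arrays the lowest. Its falls were -0.46 ± 0.08 in WT and -0.86 ± 0.08 in KD (adjusted p = 0.00407 and 0.00016). Mrps9 and Mrps2, both with bacterial counterparts, fell by 0.63 and 0.58 in WT and by 0.52 and 0.51 in KD (adjusted p between 0.00203 and 0.00674). Mrps12, the protein of the decoding centre, changed by -0.36 ± 0.11 and -0.30 ± 0.11 (adjusted p = 0.0326 and 0.0463), and it was called lower in 12 of the 19 fits in WT and 8 in KD.

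Mrps18a, Mrps18b and Mrps18c are the 3 mammalian relatives of a single bacterial protein, and none passed the test in any contrast on its brightest probe. Their WT injury changes were -0.03, 0.32 and 0.11, and their KD injury changes -0.16, 0.25 and 0.12, in that order. A second probe of Mrps18c rose by 0.38 in KD (adjusted p = 0.00848). Mrps30, which despite its name sits in the large subunit, changed by 0.00 in WT and 0.02 in KD. Mrps36, now known as a part of the 2-oxoglutarate dehydrogenase complex of the citric acid cycle, fell by 0.70 ± 0.19 in WT (adjusted p = 0.0223) and 0.93 ± 0.19 in KD (adjusted p = 0.0048). The 2 WT IRI arrays of Mrps36 were at 2.52 and 1.86, far apart for this set, with uninjured arrays at 2.88 to 2.98.

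**Figure D2:**
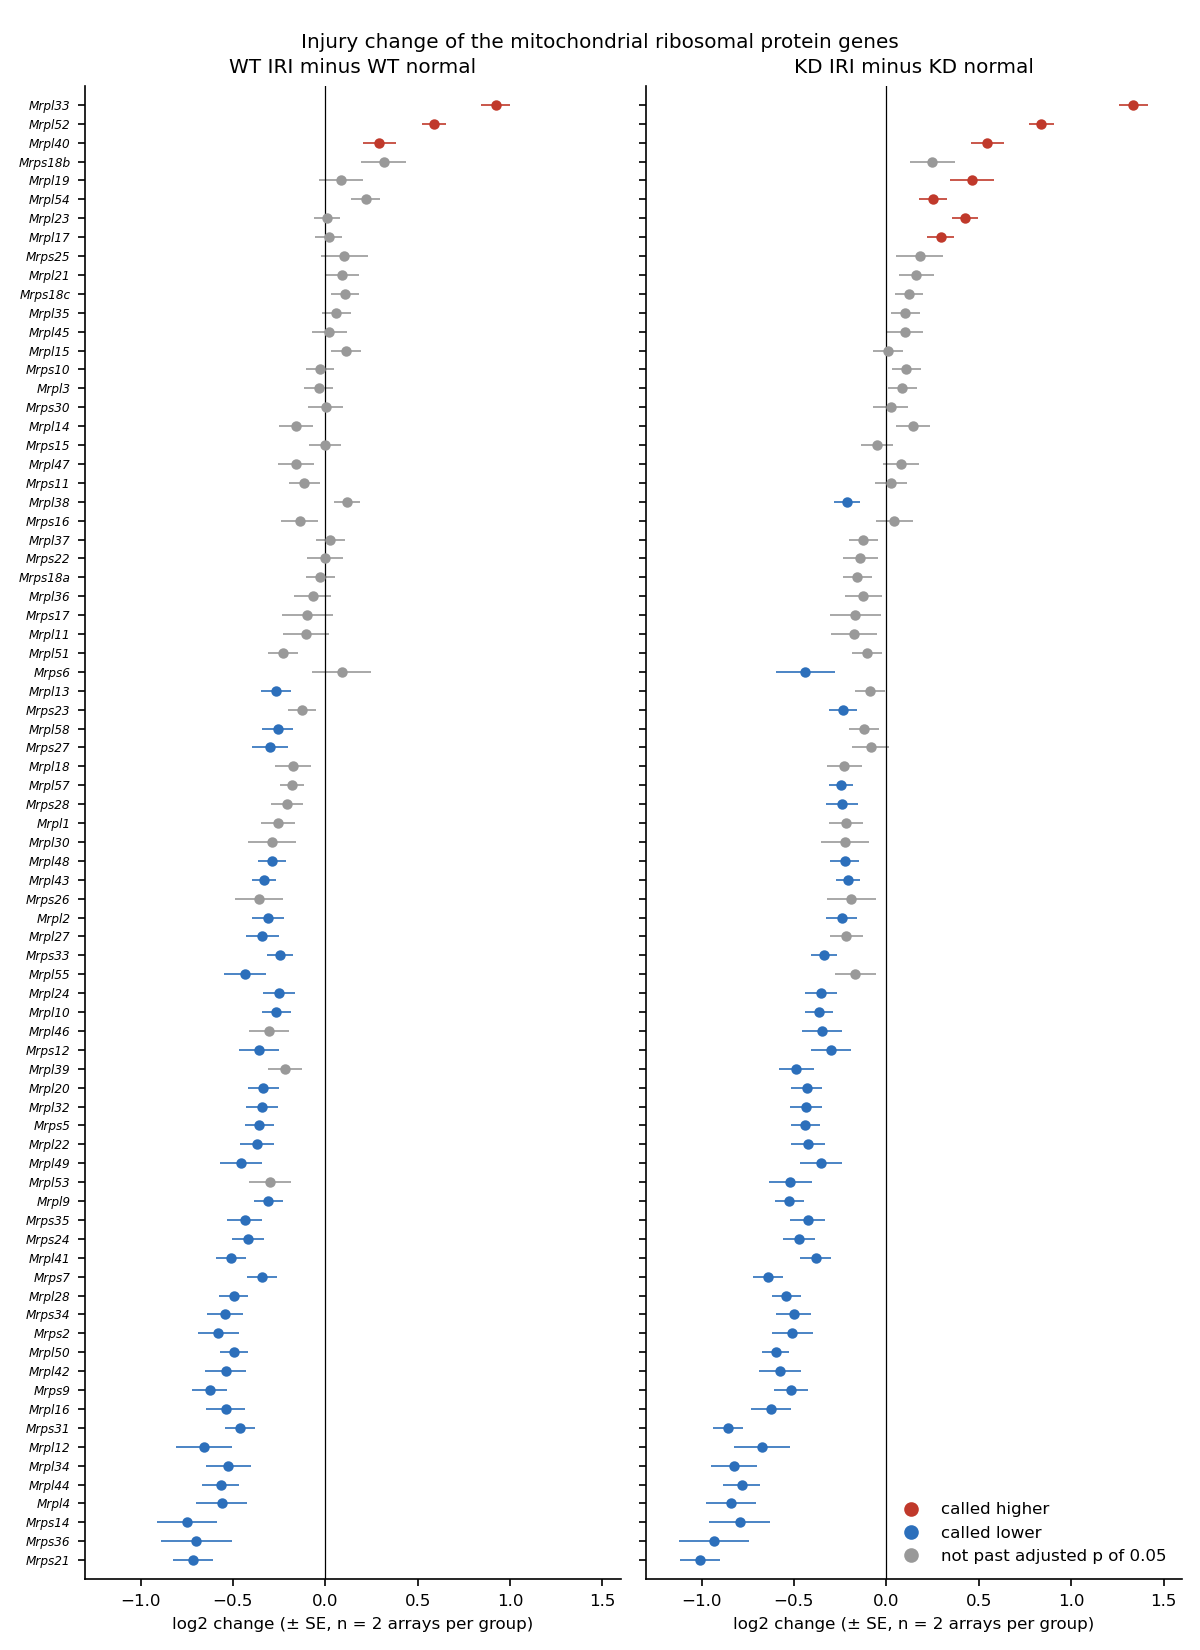
Injury change of each of the 78 members in WT (left) and KD (right) kidney, as log2 change ± SE from limma with 2 arrays per group, ordered by the sum of both changes. Red points were called higher (3 and 7), blue points lower (37 and 40) and grey points did not pass the adjusted p threshold of 0.05.

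The number of WT calls rested on few arrays. Members lower in WT numbered 14 (17.9%, against 15.1% of all genes) without the first WT normal array, 16 (20.5% against 16.0%) without the second, and 22 (28.2% against 18.8%) without the second WT IRI array. In KD the count was lowest, at 27 (34.6% against 23.6%), without the second KD IRI array, and highest, at 41 (52.6% against 32.6%), without either WT IRI array. Each slide held 1 array of every group, and the median WT change within a slide was -0.19 on the first and -0.28 on the second. In KD the within-slide medians were -0.23 and -0.26. With the slide as a block 40 members were lower in WT (51.3% against 27.6% of all genes) and 41 in KD (52.6% against 34.0%).

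Of the members with more than 1 usable probe, 19 of 25 had probes of 1 sign in WT and 20 of 25 in KD. No member had probes called in opposite directions. The largest gap between probes was 0.75 for Mrps17 in WT and 0.84 for Mrpl35 in KD. In both cases the brightest probe did not pass and another probe did, rising by 0.65 for Mrps17 in WT (adjusted p = 0.0111) and falling by 0.74 for Mrpl35 in KD (adjusted p = 0.0199).

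The injury changes of WT and KD share no array and could be set side by side. Their calls are not independent, because both use 1 spread per gene, pooled over the 4 groups and moderated by limma. Over the 78 members, which are not independent replicates, Pearson's r was 0.897 and Spearman's rho 0.853, and over all genes r was 0.82. There were 32 members lower in both genotypes, equal to 86.5% of those lower in WT and 80% of those lower in KD. The 3 members higher in WT were also higher in KD, 26 members were called in neither genotype, and none was called in opposite directions. The same counts over all genes were not made, so this overlap is not shown to be particular to the members.

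**Figure D3:**
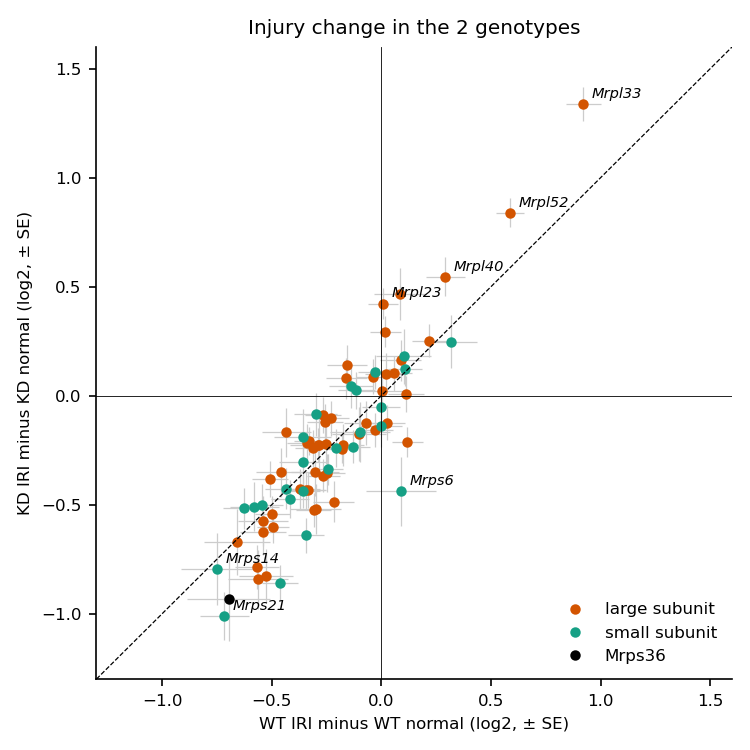
Injury change in WT (x axis) against that in KD (y axis) for the 78 members, log2 scale with SE bars, coloured by subunit, with the line of equality dashed. Mrpl33 lies at 0.92 and 1.34, Mrps21 at -0.72 and -1.01, and Mrps6 at 0.09 and -0.44.

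Other genes of mitochondrial translation were read from lists compiled by function. Dap3, Ptcd3, Aurkaip1, Chchd1 and Gadd45gip1 encode subunits of the mitochondrial ribosome under other symbols. In WT Ptcd3 (-0.32) and Aurkaip1 (-0.24) fell and Chchd1 (0.28) rose, and in KD Dap3 (-0.25) and Aurkaip1 (-0.25) fell, but none of these 5 genes was called lower with quantile normalization. Among 18 translation factors 11 fell in WT and 12 in KD, with medians of -0.40 and -0.37 and none higher, and with quantile normalization 9 were lower in each. Gatb, a subunit of the enzyme that makes mitochondrial glutaminyl-tRNA, fell by 1.10 ± 0.10 in WT and 1.53 ± 0.10 in KD (adjusted p = 0.00036 and 4.62e-05). The elongation factor gene Gfm1 fell by 0.67 in WT, and Gfm2, whose product recycles ribosomes, fell by 1.05 in KD.

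Of 21 assembly factors 9 fell in WT, and 8 fell and 1 rose in KD. The GTPase gene Gtpbp10 fell by 0.77 and 0.83, and the endonuclease gene Ybey by 0.63 and 0.61. Of 17 mitochondrial aminoacyl-tRNA synthetases 8 fell in WT, and 9 fell and 1, Mars2, rose in KD. Among 13 regulators of mitochondrial transcription and biogenesis, 9 fell and 2 rose in WT, and 6 fell and 3 rose in KD. Ppargc1a, the coactivator PGC-1α, fell by 1.27 ± 0.24 in WT and 1.86 ± 0.24 in KD. Myc, a transcription factor of growth, rose by 2.18 ± 0.19 and 2.74 ± 0.19, and Pprc1, a coactivator related to PGC-1α, by 1.05 ± 0.09 and 1.18 ± 0.09.

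A pair of other sets lay on either side of the members. Of a list of 52 nuclear genes for oxidative phosphorylation subunits 41 were measured, and all 41 fell in both genotypes. Their medians were -0.89 in WT and -0.99 in KD, and 38 were lower in each with quantile normalization. Of 81 cytosolic ribosomal protein genes, 50 rose and 1 fell in WT (median 0.27), and 66 rose and 2 fell in KD (median 0.41). Both medians kept their sign with quantile normalization, and the members' median lay between them under either scaling.

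**Figure D4:**
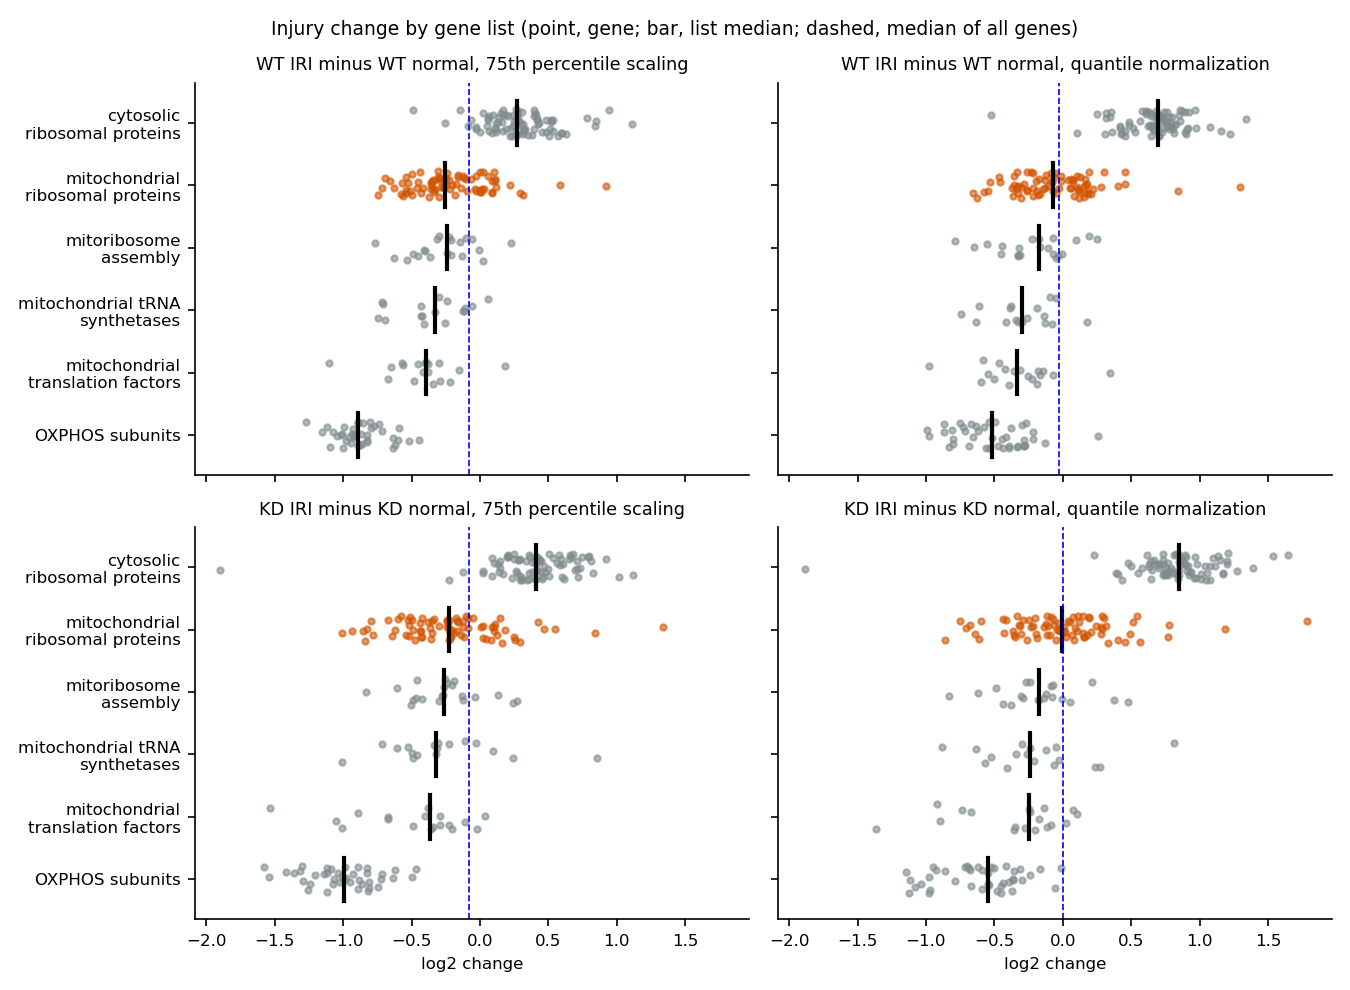
Injury change (x axis, log2) of single genes by list in WT (top) and KD (bottom), with array percentile scaling on the left and quantile normalization on the right. Bars are list medians and dashed lines the median of all genes, and the members' medians move from -0.26 to -0.07 in WT and from -0.23 to -0.01 in KD.

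Cell type markers moved with injury, and in whole kidney fewer cells of a type and less RNA per cell cannot be told apart. The mean log2 level of 11 proximal tubule markers was 6.09 to 6.18 on the 4 uninjured arrays, 4.82 and 4.29 on the WT IRI arrays, and 4.21 and 3.86 on the KD IRI arrays. Of them 10 fell in WT and 11 in KD. All 6 markers of the loop of Henle and distal tubule fell in both genotypes, with medians of -1.91 in WT and -1.99 in KD, and 5 of 6 collecting duct markers fell in each. The mean level of the loop and distal markers was 4.21 to 4.81 on uninjured arrays and 1.31 to 1.73 on injured ones. The mean level of 6 neutrophil markers ran from -5.60 to -2.66 on uninjured arrays, the highest being the second KD normal array, and from -0.05 to 0.78 on injured ones, with 5 of 6 higher in each genotype. Of 6 macrophage markers measured, 5 were higher and 1 lower in each genotype. Retnlg, Csf3r and Cxcr2 were not well above background in either uninjured group. The mean level of the 78 members was 2.85 to 2.91 on uninjured arrays, 2.72 and 2.58 on WT IRI, and 2.72 and 2.64 on KD IRI. Within each of the 4 groups, uninjured ones included, the array on the second slide had the lower proximal tubule mean and the lower member mean. This order and the slide cannot be told apart. Between the injured groups, both KD IRI arrays had lower proximal tubule means than both WT IRI arrays, whereas the member means overlapped. The part of cell composition in the members' changes was not tested.

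Members that share a divergent promoter region with another gene allowed a look at neighbours. With a limit of 1000 bases between starts on opposite strands, 24 members had such a neighbour, and in 20 pairs the neighbour was not itself a member and both genes were measured. Of these 20 pairs, the member was lower in 11 in WT and the neighbour in 5, with both lower in 3. In KD the member was lower in 10 and the neighbour in 5, with both lower in 4. The neighbours' share of lower calls was thus not above that of all genes in either genotype, and 2 neighbours were higher in WT and 5 in KD. Mrpl46 and Mrps11, which start 42 bases apart, are both members, and of their injury changes only that of Mrpl46 in KD passed the test (-0.35, adjusted p = 0.0281). Mrpl43 and Twnk, which encodes the mitochondrial DNA helicase, start 116 bases apart and fell together, by 0.33 and 0.45 in WT and 0.21 and 0.58 in KD. Mrpl57 and the mitotic gene Ska3 start 76 bases apart and were called in opposite directions in KD, at -0.24 and 5.55.

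Keap1 knockdown was accompanied by far smaller differences in this gene set. In normal kidney 15.2% of all genes differed between KD and WT, 8.78% lower and 6.4% higher in KD. On their brightest probes 2 of the 78 members did (2.56%), 1 in each direction. A dimmer probe of Mrps17 was higher in KD by 0.60 and one of Mrpl3 by 0.37 (limma on single probes, adjusted p = 0.0367 for each). The brightest probes of these genes, at 0.02 and 0.12, did not pass. The KD and WT arrays did not overlap for 48 members, against 64.4% of all genes. At an unadjusted p under 0.05 there were 10 members, 9 higher and 1 lower (12.8%, against 32.9% of all genes). The median difference was 0.03, against -0.03 for all genes.

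Mrpl38, a mitochondria-specific protein of the large subunit, was at 2.26 and 2.25 on the WT normal arrays, 2.63 and 2.65 on KD normal, 2.33 and 2.41 on WT IRI, and 2.46 and 2.39 on KD IRI. The KD normal arrays stood above the other 6. The difference in normal kidney was 0.38 ± 0.07 (1.31-fold higher in KD, adjusted p = 0.0176). It did not pass without either WT normal array or the second KD normal array (adjusted p from 0.0614 to 0.117), or with normexp (0.0574). Mrpl23 was lower in KD normal by -0.27 ± 0.07 (adjusted p = 0.0451), and this was lost on leaving out any of the 4 normal arrays or either KD IRI array (adjusted p from 0.0779 to 0.249). With the slide as a block, Mrpl20 (0.26, adjusted p = 0.0386) and Mrps7 (0.27, adjusted p = 0.0494) were also higher in KD.

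After injury 7.11% of all genes differed between KD and WT, 3.69% higher and 3.42% lower in KD. Limma called 0 of the 78 members, with 5 at an unadjusted p under 0.05 (6.41%, against 26.8% of all genes), all higher in KD, and the arrays did not overlap for 27 members, against 57% of all genes. Mrpl33 had the smallest adjusted p, with a difference of 0.31 ± 0.08 (adjusted p = 0.0633, and 0.0391 with the slide as a block). Mrpl14, the counterpart of a bacterial protein at the subunit interface, differed by 0.33 ± 0.09 (adjusted p = 0.077, and 0.0374 with the block), and Mrpl19 by 0.37 ± 0.12 (adjusted p = 0.105). The test of the genotype difference in the injury response called 6.6% of all genes, 3.79% with a higher and 2.81% with a lower response in KD, and limma called 0 members, with 7 at an unadjusted p under 0.05 (8.97%, against 26.1% of all genes). Mrpl23 (0.42 ± 0.10, adjusted p = 0.0563) and Mrpl33 (0.41 ± 0.11, adjusted p = 0.0748, and 0.0455 with the block) came closest. Both passed with quantile normalization, at adjusted p of 0.0344 and 0.0338.

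The intervals below are for single genes under array percentile scaling. They rest on the spread between arrays of a group, which may be technical, so they do not bound a genotype difference between mice. The 95% confidence interval lay within 1.5-fold either way for 76 of 78 members in normal kidney, for 75 after injury and for 64 in the difference of injury responses. In normal kidney the bounds reached 0.65 for Mrps6 and -0.52 for Mrps14, and after injury 0.65 for Mrpl19 and -0.63 for Mrps6. In the difference of injury responses they reached 0.78 for Mrpl19 and -1.06 for Mrps6. The 2 WT IRI arrays of Mrps6 were at 4.96 and 5.46, a wider spread than in its other groups.

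**Figure D5:**
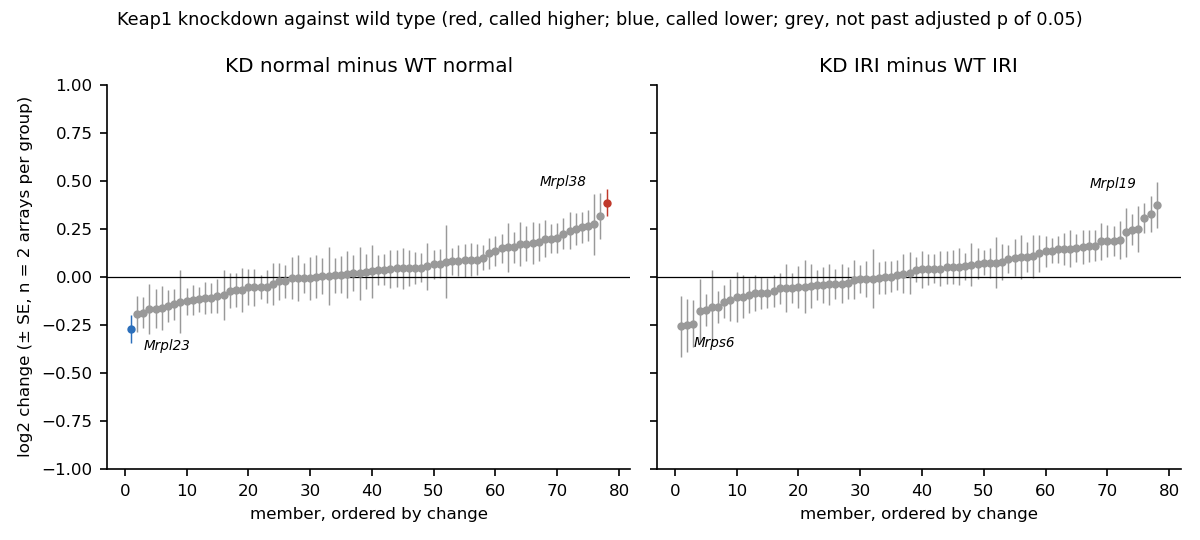
Difference between KD and WT (y axis, log2 ± SE, 2 arrays per group) of the 78 members in normal (left) and injured (right) kidney, each ordered by size. In normal kidney Mrpl38 at 0.38 and Mrpl23 at -0.27 were called, and after injury the range ran from -0.26 for Mrps6 to 0.37 for Mrpl19 with none called.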

How the data were processed

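RNA from 8 mouse kidney arrays, 2 in each of 4 groups, was analysed, grouped by the labels. Per the file headers, the deposited spot intensity values came from Agilent Feature Extraction 10.7.3.1, which subtracted background and detrended them on a linear scale. The log2 values deposited for the series tracked the scaled and probe-centred log2 intensity with r of 0.998 or more; its scaling and centring are inferred from the values, its column medians ran from -0.136 to 0.158, and it served only as an alternative.

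Control spots and outlier-flagged spots were left out and replicate spots averaged. Each array was scaled to its 75th percentile. Kept probes were well above background on every array of some group and unflagged on all 8, which left 27409 of 41174 probes. Symbols came from RefSeq accessions (GRCm38.p6, used for names, neighbours and promoter windows), giving 20581 genes by brightest probe, 14105 with a symbol. The array design dates from mm9, and no positions were converted. Levels were not compared between probes.

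All 8 arrays were fitted by group with limma 3.58.1 under R 4.3.3 (tables read by data.table release 1.17.8), with an intensity trend and 4 residual degrees of freedom, and 5 two-sided contrasts were adjusted by Benjamini-Hochberg within each. SE values are limma's. Precision is limited by the number of arrays. The pipeline was tested on simulated data. The members and lists were chosen with earlier results of these data known.

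Members named were Mrpl10, Mrpl11, Mrpl12, Mrpl41, Mrpl58, Mrps12, Mrps18a, Mrps18b, Mrps18c and Mrps30, plus up to 8 largest rises and 8 largest falls called without overlap and the 3 largest changes not called, per contrast; from other lists, up to 2 rises, 2 falls and 1 not called. Not all are described. Mrpl3, Mrpl16, Mrpl20, Mrpl35, Mrpl43, Mrpl50, Mrpl57, Mrps11, Mrps17, Mrps25, Twnk and Ska3 lie outside the rule and were chosen after their values were seen.

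Alternatives were quantile normalization, array median scaling, normexp with an offset of 50 (on the median spot signal, since the mean signal planned was not used here), the deposited log2 values, other filters on dim probes, no trend, the slide as a block, the mean of probes, only the arrays compared, a 1.5-fold minimum, and omission of 1 array at a time. The replicate number equals the slide, and position on the slide equals the group, so position and group cannot be told apart. Deviations of same-numbered arrays from group means correlated with r of 0.022 to 0.262, not all above 0.1, so the numbers were not taken as pairs.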

Additional observations from a re-analysis of the deposited data

Results flagged for a closer look

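Mars2, which encodes the mitochondrial methionyl-tRNA synthetase, was the 1 gene among the members and the mitochondrial lists whose injury response differed between genotypes by the test of the difference itself. Its response was higher in KD than in WT by 0.913 ± 0.170 on the log2 scale (limma, adjusted p = 0.0333), with 1.09 on the first slide and 0.74 on the second. In KD it rose by 0.85 ± 0.12 with injury (adjusted p = 0.000894), and after injury it was 1.71-fold higher in KD than in WT (adjusted p = 0.0201).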

How the results depend on the processing

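Array percentile, array median and deposited-table scaling differ by a constant per array, so the members' median minus that of all genes was -0.1756 in WT and -0.145 in KD under each by construction. Quantile normalization changes bright genes relative to dim ones, and which scaling is nearer the truth was not settled. In WT injury quantile normalization gave 6 higher, 20 lower and a median of -0.074, and normexp 5, 15 and -0.0692. In KD injury they gave 17 higher, 19 lower and -0.0074, and 17, 18 and -0.0028. With a fold minimum of 1.5, WT had 5 lower, and KD 2 higher and 11 lower, since the smaller changes drop out. The normexp and fold-minimum counts stand without the share of all genes under the same setting, so they do not show an excess over the background. Of the members lower, 14 of 37 in WT and 17 of 40 in KD were lower under all 5 scalings. The same share over all genes was not counted. For KD against WT in normal kidney the median turned to -0.0334 and -0.0153. There normexp and the fold minimum gave 0 higher, and no dim-probe filter, no trend, only the arrays compared and the fold minimum gave 0 lower. After injury quantile gave 1 higher and normexp 2. For the difference of injury responses, quantile and normexp gave 2 higher each and medians of 0.0658 and 0.0786, and array median scaling 1 higher. Mrpl58 in WT turned to 0.045 under normexp.

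With the slide as a replicate block, 3 members were higher in KD normal, 2 in KD IRI (Mrpl14 and Mrpl33) and 1 in the difference of responses (Mrpl33), against 1, 0 and 0 without; each same-numbered array correlated only weakly with its partners.

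Leaving out 1 array gave, in WT injury, 2 to 3 higher, 14 to 39 lower and medians from -0.3026 to -0.179, and in KD injury 5 to 7, 27 to 41 and -0.2726 to -0.1833. KD against WT in normal kidney ranged over 0 to 2 higher, 0 to 1 lower and 0.0087 to 0.047. After injury it ranged over 0 to 1 higher, 0 to 2 lower and -0.0492 to 0.0967 (Mrps25 higher without the first WT IRI array, Mrpl34 and Mrps36 lower without the second). The difference of responses ranged over 0 higher, 0 to 1 lower and -0.0839 to 0.0654 (Mrps6 lower without the first WT IRI array, Mrps36 without the second). A fit without 1 array assumes that the lone array varies like the other groups. The share of all genes called also moved in such fits, as given above for some of them. These counts alone therefore show no excess over the background.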
